A study of Saccharomyces cerevisiae with 2 samples.

Results

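The 478 nucleosome-depleted sites described here are stretches of 200 bp in the genome of the budding yeast Saccharomyces cerevisiae in which few mononucleosomal DNA tags were found both after phosphate starvation and in high phosphate, while the DNA on either side was well covered in high phosphate. They were chosen by their measured values out of 60168 bins of 200 bp on the 16 nuclear chromosomes, which is 0.794% of the bins. Of all bins, 10.8% were at the starvation threshold or under, 13.2% at the high phosphate threshold or under and 7.46% at both, before anything was asked of their neighbours. Each tag was moved 73 bp towards the middle of its fragment and counted in bins, and each count was divided by the median bin of its library to give a level. A site had a level of 0.3 or less in starvation and of 0.5 or less in high phosphate. Both adjoining bins had a level of 0.8 or more in high phosphate, and at least 1 unmoved tag lay in the bin or within 100 bp of it.

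The strain, PHO4-MYC::TRP1; CBF1-3HA::LEU2, was the same in both groups. It carries tagged forms of Pho4, the activator of genes switched on when phosphate is scarce, and of Cbf1, another DNA-binding factor that recognises the same core sequence. All cells were first held for 3 hours without phosphate. The starvation group then spent 80 minutes in 0 mM phosphate and the high phosphate group spent 80 minutes in 10 mM phosphate, so the high phosphate cells had also been starved. Each group is 1 library, and no test between the groups was possible. Intervals below cover counting error only. Because repeat tags had been collapsed, molecules with the same position and strand count as 1 tag, so tags are not a count of molecules.

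A nucleosome is a stretch of DNA wrapped around a core of histone proteins, and the midpoint of that stretch is called the dyad. Micrococcal nuclease cuts the linker DNA between nucleosomes, so sequenced fragments mark wrapped DNA and gaps in tag coverage mark DNA that was not recovered as a mononucleosome. The labels' protocols describe this digestion, while the description field of both samples speaks of sonication. If fragments had been broken by sonication, edges, footprints and gap widths would not mark the borders of nucleosomes. In yeast, nucleosome-depleted regions are best known upstream of genes, where general regulatory factors, chromatin remodellers and stiff runs of A or T keep DNA accessible. They are typically bordered by well-placed nucleosomes from which regular arrays extend. The bins are given here by their position in the genome build of the files (sacCer1). No gene, annotation or sequence is attached to them, since no genome or annotation of that build was used.

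The starvation library held 1001229 nuclear tags and the high phosphate library 2598022. The median bin with tags held 12 tags in starvation and 44 in high phosphate, so a site could hold at most 3 starvation tags and 22 high phosphate tags. Low counts of this size are coarse: by the floor of 3 counts, a count of 0 in starvation allows up to 3 tags, or 0.25 of the median bin, so it cannot be told apart from the other counts that the rule admits.

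Sites held a median of 2 tags in starvation, with quartiles of 1 and 3, and a median of 15 tags in high phosphate, with quartiles of 10 and 18. These values chose the sites, and the starvation level is lower partly because its threshold was set lower, so no difference between the libraries is read from them. In starvation 31 sites had 0 tags, 105 had 1, 168 had 2 and 174 had 3. In high phosphate every site had at least 1 tag, 29 sites had 5 or fewer, and 90 had 20 or more. Of all tags in the site and its adjoining bins, the site itself took 5.23% in the starvation library, with an exact binomial interval (95%) of 4.92% to 5.57%. In the high phosphate library it took 12.0%, with an interval of 11.7% to 12.3%. The same counts chose the sites, so these shares are a description, and their intervals do not cover that choice. The middle 80 bp of the sites stood at 9.99% of the mean density found 300 to 1500 bp away in starvation and at 25.8% in high phosphate.

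**Figure D1:**
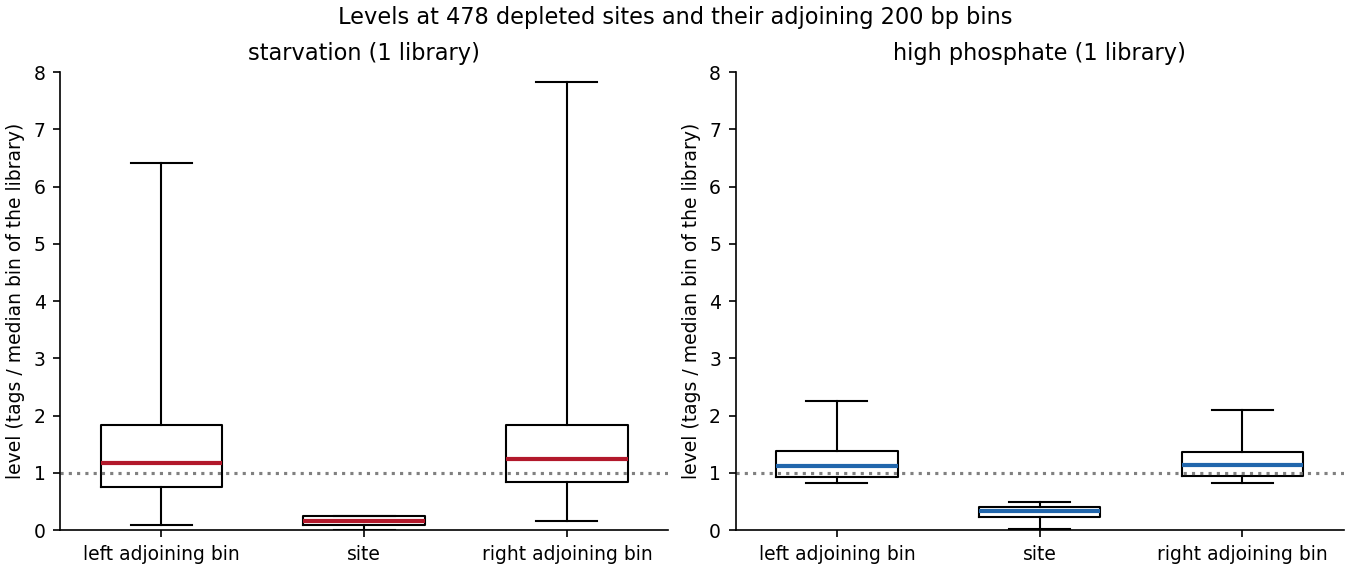
Level of each of the 478 sites and of its left and right adjoining bins, in tags divided by the median bin of the library, for starvation (left panel) and high phosphate (right panel), 1 library each. Boxes span the quartiles, coloured lines are medians, whiskers reach the lowest and highest site, and the dotted line is the median bin. Adjoining bins reached levels of 7.83 in starvation and 2.25 in high phosphate.

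The 10 sites with the lowest level in high phosphate lay on 10 different chromosomes. The lowest was on chromosome 12 from 196601 to 196800, with 2 tags in starvation and 1 tag in high phosphate. Its left and right adjoining bins held 4 and 18 tags in starvation and 42 and 59 in high phosphate. The left side of this site was thus low in starvation and covered in high phosphate, which the rule allows because it set no condition on the starvation flanks.

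The site on chromosome 6 from 149801 to 150000 had 1 tag in starvation and 2 in high phosphate. Its adjoining bins held 15 and 43 tags in starvation and 40 and 56 in high phosphate. On chromosome 7 from 695201 to 695400 there were 3 starvation tags and 2 high phosphate tags, between bins of 53 and 13 tags in starvation and 88 and 57 in high phosphate. These sites were narrow dips in covered DNA, with both neighbours above the median starvation bin of 12 tags.

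Another 7 sites had 3 tags in high phosphate. Of these, 4 had 1 starvation tag each and started at 302201 (chromosome 4), 145601 (chromosome 11), 110601 (chromosome 14) and 35001 (chromosome 16). The other 3 had 3 starvation tags each and started at 31201 (chromosome 3), 436001 (chromosome 5) and 402201 (chromosome 10). At such counts the order among the 10 sites is within counting error.

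The lowest site of each chromosome, by the sum of both levels, had no starvation tag on 9 of the 16 chromosomes. On chromosome 13 from 216201 to 216400 there were 0 tags in starvation and 5 in high phosphate, between bins of 53 and 41 tags in starvation and 65 and 91 in high phosphate. The dyads on either side of this site were 300 bp apart in both libraries. On chromosome 12 from 1024001 to 1024200 there were 0 tags in starvation and 4 in high phosphate. The sites starting at 251801 (chromosome 6) and 1018801 (chromosome 15) each held no starvation tag and 5 high phosphate tags. The remaining 5 had no starvation tag either. They started at 353401 (chromosome 2), 198601 (chromosome 5), 226801 (chromosome 10), 38801 (chromosome 7) and 178801 (chromosome 3), and held 6, 7, 9, 10 and 11 high phosphate tags in that order. The sites of the other chromosomes had 1 or 2 starvation tags and 3 to 9 high phosphate tags.

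Just inside both thresholds lay sites with 3 starvation and 22 high phosphate tags, starting at 93401 and 741601 on chromosome 2 and at 25201 on chromosome 3. Just outside the starvation threshold lay bins with 4 starvation tags, of which the lowest in high phosphate, on chromosome 3 from 124201 to 124400, had 1 tag there. Just outside the high phosphate threshold lay bins with 23 high phosphate tags, of which the lowest in starvation, on chromosome 14 from 278601 to 278800, had 0 tags there. A single tag separated the bins on either side of each threshold.

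Depletion in one library was measured in the other by choosing bins on 1 library alone. High phosphate alone chose 1671 bins, at 0.5 or less with both adjoining bins at 0.8 or more, and the sites are the 478 of these (28.6%, 95% exact binomial interval 26.4% to 30.8%) at 0.3 or less in starvation. Among the 28386 bins above 0.5 in high phosphate with equally covered adjoining bins, 981 (3.46%) were at 0.3 or less in starvation. The median starvation level was 0.417 in the bins chosen in high phosphate, with quartiles of 0.25 and 0.75, and 1.08 in the bins not chosen, with quartiles of 0.667 and 1.92. Starvation alone chose 958 bins, at 0.3 or less with both adjoining bins at 0.8 or more in starvation. Their median high phosphate level was 0.545, against 1.07 in the 22741 bins not chosen. Of them, 45.4% (42.2% to 48.6%) were at 0.5 or less, against 6.28% of those not chosen. The 2 choices differ in threshold, so 45.4% and 28.6% are not like for like. At 0.5 or less, starvation chose 3353 bins, with a median high phosphate level of 0.727. Of these, 917 (27.4%, 25.9% to 28.9%) were at 0.5 or less in high phosphate. Bins low in either library were therefore low more often in the other, although most bins low in high phosphate with covered neighbours did not reach the starvation threshold. The libraries share the genome, the enzyme and the placement of tags, and the part of these in the overlap was not tested.

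Because sites were picked for low counts, their levels are lower than tags that took no part in the choice would show. The rule was applied to tags at odd positions alone, which gave 550 sites, and the tags at even positions were then read at those sites. The mean starvation level was 0.340 in the tags not used for the choice, against 0.110 in the tags used. The mean high phosphate level was 0.404 in the tags not used, against 0.338 in the tags used. With the parts exchanged there were 527 sites, at 0.310 in the tags not used and 0.110 in those used in starvation, and at 0.409 and 0.327 in high phosphate. In the tags not used, the mean level of the sites was thus still below the median bin in both libraries. The mean starvation level there, 0.340 or 0.310, was above the starvation threshold of the rule. The mean high phosphate level, 0.404 or 0.409, was below the high phosphate threshold. Only 151 sites, of the 550 chosen on odd and the 527 chosen on even positions, met the whole rule in both sets of tags. Most sites chosen on 1 set of tags therefore did not meet it in the other.

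The rule used the adjoining bins in high phosphate but not in starvation. In starvation both adjoining bins were at 0.8 or more at 271 sites (56.7%, 95% exact binomial interval 52.1% to 61.2%), 1 of them at 166 sites and neither at 41 sites. Among all 30057 bins with covered neighbours in high phosphate, 55.7% had both neighbours at 0.8 or more in starvation, so the share at the sites was near the background. Among the 1193 bins that were low in high phosphate but above the starvation threshold it was 67.5% (64.7% to 70.1%). Only 16 sites (3.35%) had an adjoining bin at 0.3 or less in starvation, against 3.79% of all bins with covered neighbours. This share too was near the background.

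Adjoining bins varied more from site to site in starvation than in high phosphate. The mean level of the 2 adjoining bins ran from 0.333 to 5.50 in starvation, with quartiles of 0.917 and 1.83. It ran from 0.830 to 1.90 in high phosphate, with quartiles of 1.03 and 1.33, where the rule cut off the low end. Among all 30057 bins with covered neighbours the quartiles were 0.917 and 2.125 in starvation and 1.06 and 1.35 in high phosphate. The wider spread in starvation was thus not particular to the sites. Counting error is also larger in starvation, whose median bin held 12 tags against 44 in high phosphate. The fuller adjoining bin was on the same side in both libraries at 303 of 449 sites without a tie (67.5%, 62.9% to 71.8%), beside 64.3% (63.7% to 64.8%) of the bins above the high phosphate threshold. The unevenness of a site's flanks was thus shared between the libraries about as often as elsewhere.

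The most covered flanks in starvation were on chromosome 1 from 132001 to 132200. The site itself held 3 starvation tags and 13 high phosphate tags, and its adjoining bins held 64 and 68 tags in starvation and 54 and 81 in high phosphate. The starvation flanks there stood at 5.33 and 5.67 times the median bin, against 1.23 and 1.84 in high phosphate. The next sites by starvation flanks started at 646201 (chromosome 16), 48001 (chromosome 8), 61001 (chromosome 15) and 241801 (chromosome 13), all with 3 starvation tags. On chromosome 13 the flanks were uneven in starvation, with 17 tags on the left and 94 on the right, against 45 and 74 in high phosphate.

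At the other extreme, some sites lay in DNA that was sparsely covered in starvation altogether. On chromosome 4 from 1231401 to 1231600, 1 starvation tag lay between bins of 3 and 5 tags, and 14 high phosphate tags lay between bins of 39 and 43. On chromosome 14 from 251001 to 251200, 3 starvation tags lay between bins of 4 and 4 tags, and 22 high phosphate tags between bins of 38 and 36. On chromosome 15 from 526201 to 526400 there were 0 starvation tags between bins of 5 and 3, and 18 high phosphate tags between bins of 45 and 42. The sites starting at 543001 on chromosome 5 and 773201 on chromosome 16 completed the lowest 5. In high phosphate these were dips between covered bins, and in starvation the site and its neighbours were all low.

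Strand gave the edges of the flanking nucleosomes. The rule counted the same tags after moving them, so an empty bin by itself holds these edges away from its centre, and their positions are a description. A tag on the minus strand marks the right edge of a fragment and a tag on the plus strand its left edge. Summed over the sites, the minus-strand tags of the left nucleosome peaked 74 bp left of the site centre in starvation and 79 bp left of it in high phosphate. The plus-strand tags of the right nucleosome peaked 68 bp right of the centre in starvation and 78 bp right of it in high phosphate. The gap between these edges measured 142 bp in starvation (SD over 16 chromosomes 31.4 bp) and 157 bp in high phosphate (SD 29.8 bp). It was shorter in starvation on 13 of 16 chromosomes, with a mean difference of −20.1 bp and an SD of 21.5 bp. Chromosomes of 1 library are not replicates. The difference depended on the settings. With bins starting 100 bp later the gap was 160 bp in starvation, against 161 bp in high phosphate. When unmoved tags chose the sites it was 352 bp, against 344 bp. In the other settings it was shorter in starvation, with starvation minus high phosphate between −32 and −6 bp. With 1 library per condition and a size that changed with the settings, no direction is given for the gap width.

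Fragments were longer in the starvation library over the whole genome, 155 bp against 142 bp in high phosphate, and the part of this in the gap widths was not tested. Adding this genome-wide fragment length to the gap gave an estimate of the distance between the middles of the flanking fragments. It came to 297 bp for the starvation library and 299 bp for high phosphate. Across the left flanking nucleosome the plus and minus peaks lay 165 bp apart in starvation, against 143 bp in high phosphate, and across the right one 162 bp and 145 bp. These are longer than the genome-wide fragment, more so in starvation, so the starvation estimate is likely short. The moved tags themselves peaked at −148 and 154 bp from the site centre in starvation and at −151 and 150 bp in high phosphate. With bins starting 100 bp later the sum was 315 bp in starvation, against 303 bp in high phosphate. With high phosphate thinned it was 300 bp, against 319 bp, and when unmoved tags chose the sites 507 bp, against 486 bp. The near equality of the sums did not hold for these settings. In the other settings starvation minus high phosphate ran from −9 to 7 bp. The footprints of the flanking nucleosomes, like fragments genome-wide, were wider in starvation.

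**Figure D2:**
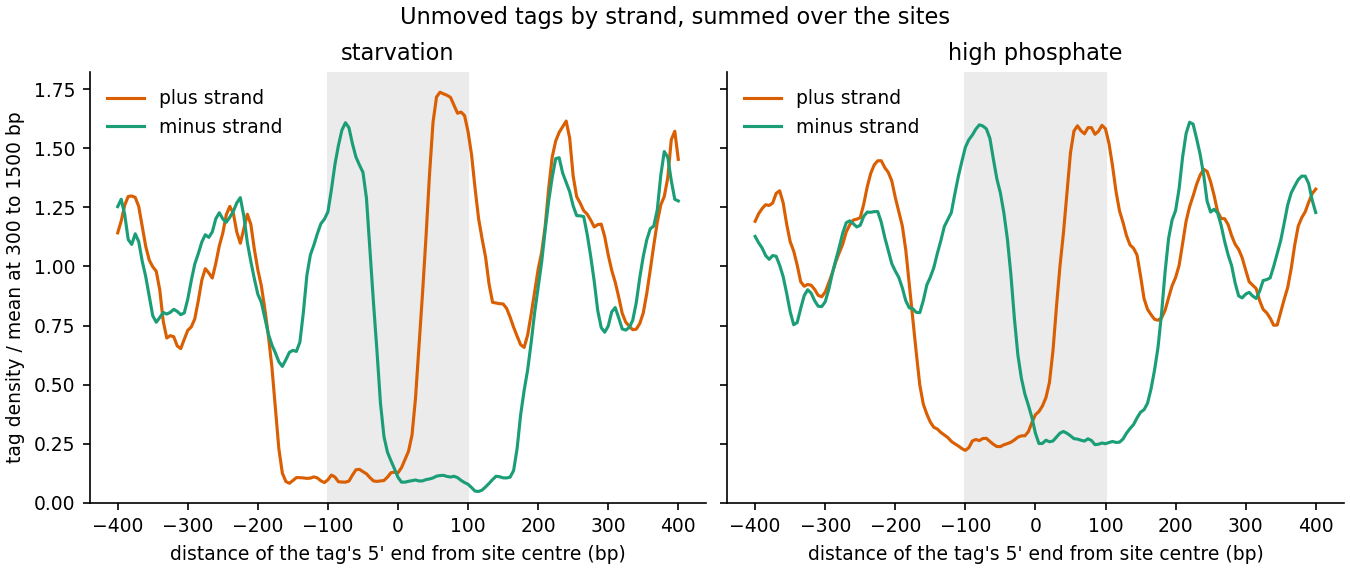
Density of unmoved plus-strand and minus-strand tags within 400 bp of the site centre, summed over the 478 sites and divided by the mean at 300 to 1500 bp, for starvation (left) and high phosphate (right). The grey band is the 200 bp site. Minus-strand tags peak 74 and 79 bp left of the centre and plus-strand tags 68 and 78 bp right of it, in starvation and high phosphate.

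Dyads were called as peaks of the smoothed tag density above the genome mean, and the nearest dyad within 300 bp was sought on each side of a site. Both flanking dyads were found at 320 sites in starvation and at 461 in high phosphate. The median spacing was 330 bp in starvation, with quartiles of 293 and 394 bp, and 323 bp in high phosphate, with quartiles of 289 and 371 bp. In high phosphate 147 sites had a spacing under 300 bp, 231 had 300 to 400 bp and 83 had over 400 bp. The rule fixes much of this width, since it places a nearly empty bin between the dyads.

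At the 316 sites with both spacings, the median difference of starvation minus high phosphate was 2 bp, with quartiles of −9 and 17 bp. The spacing differed by 20 bp or less at 208 of them (65.8%, 95% exact binomial interval 60.3% to 71.0%). It was longer by more than 20 bp in starvation at 75 sites and shorter by more than 20 bp at 33. A dyad not called in the shallower library lengthens the spacing there, and its part in this imbalance was not tested. On chromosome 14 from 110601 to 110800 the spacing was 362 bp in both libraries, and on chromosome 10 from 226801 to 227000 it was 466 bp in starvation, against 305 bp in high phosphate.

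Sites with a narrow gap had their starvation flanks covered more often. Of the 147 sites with a high phosphate spacing under 300 bp, 105 (71.4%, 63.4% to 78.6%) had both adjoining bins at 0.8 or more in starvation. The share was 51.9% (45.3% to 58.5%) at a spacing of 300 to 400 bp and 50.6% (39.4% to 61.8%) over 400 bp. The high phosphate flanks moved the same way, with median levels of 1.22, 1.16 and 1.08 from the narrowest to the widest class, and their part in this was not tested. The adjoining bins are fixed in place, so the spacing also changes how much of the nearby nucleosomes falls inside them. The part of this was not tested either. The median site held 2 starvation tags and 15 high phosphate tags in each of the 3 classes.

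**Figure D3:**
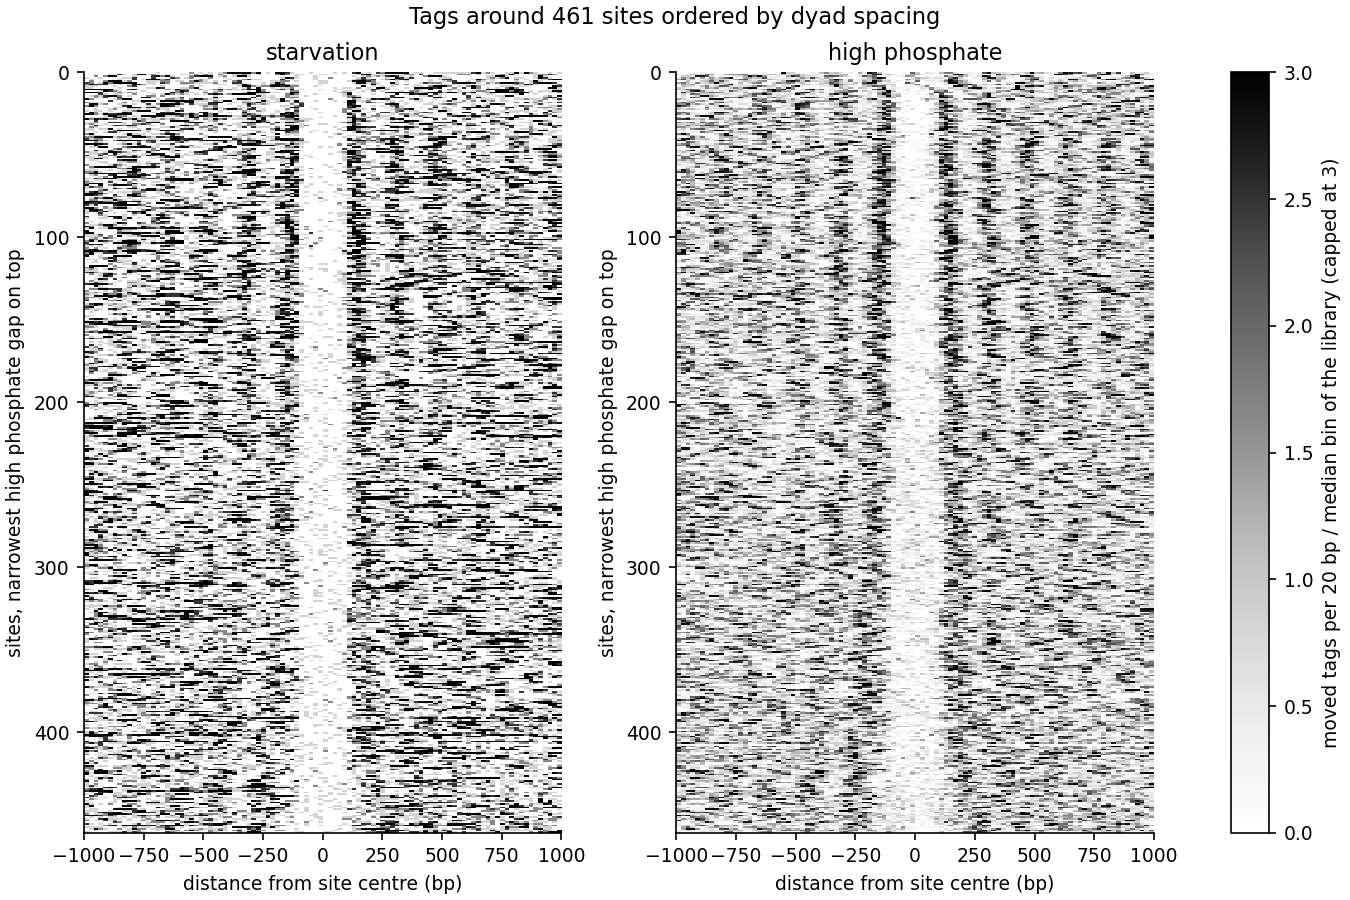
Moved tags in steps of 20 bp within 1000 bp of 461 sites, 1 row a site, in multiples of the median bin and capped at 3, for starvation (left) and high phosphate (right). Rows run from the narrowest to the widest spacing of the high phosphate dyads in both panels. Dark bands beside the white site are the flanking nucleosomes, with fainter bands further out, and the sharp borders of the white band come from the bin edges in the rule.

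The nucleosomes beside the sites lay at matching positions in both libraries more often than nucleosomes did overall. Of 935 high phosphate dyads flanking the sites, 634 (67.8%, 95% exact binomial interval 64.7% to 70.8%) had a starvation dyad within 20 bp, beside 58.1% of all high phosphate dyads. Of 771 starvation dyads flanking the sites, 667 (86.5%, 83.9% to 88.8%) had a high phosphate dyad within 20 bp, beside 74.9% of all starvation dyads. Beside the 1193 bins low in high phosphate alone the shares were 70.5% (68.6% to 72.3%) and 72.2% (70.3% to 74.1%). The rule kept both libraries low in the same 200 bp, which limits where a flanking dyad can lie in either, and its part in the matching was not tested.

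Regular arrays extended outward from the sites in both libraries. To keep the alignment apart from the measurement, starvation tags were aligned on flanking dyads called in high phosphate, and high phosphate tags on flanking dyads called in starvation. Starvation tags peaked 170, 336, 501 and 661 bp outward from the flanking dyad, at 1.94, 1.61, 1.39 and 1.15 times the mean density. High phosphate tags peaked at 168, 337, 502 and 663 bp, at 1.71, 1.46, 1.26 and 1.19 times the mean. The positions differed between the libraries by at most 2 bp, and the heights fell with distance in both.

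The arrays stood out more beside the sites than beside the average dyad. Array contrast, the mean density 160, 320 and 480 bp outward divided by that 240, 400 and 560 bp outward, was 2.18 beside the sites in starvation (SD over chromosomes 0.670), against 1.68 beside all dyads (SD 0.0529). In high phosphate it was 1.80 beside the sites (SD 0.228), against 1.46 beside all dyads (SD 0.0380). It was higher beside the sites on 16 of 16 chromosomes in starvation and on 15 of 16 in high phosphate. Chromosome 6, with 5 sites, gave the highest starvation value, 4.44, and without it the contrast beside the sites was 2.17 in starvation and 1.80 in high phosphate. Beside the bins low in high phosphate alone the contrast was 1.91 in starvation (SD 0.245) and 1.64 in high phosphate (SD 0.148), between the sites and all dyads. All dyads were read in both directions, and dyads beside the sites only away from the site. Read away from the bin in the same way, dyads beside the bins above the high phosphate threshold gave 1.72 in starvation (SD 0.0712) and 1.47 in high phosphate (SD 0.0454). No test of these differences was made, since each library is 1 sample and its chromosomes are not replicates.

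**Figure D4:**
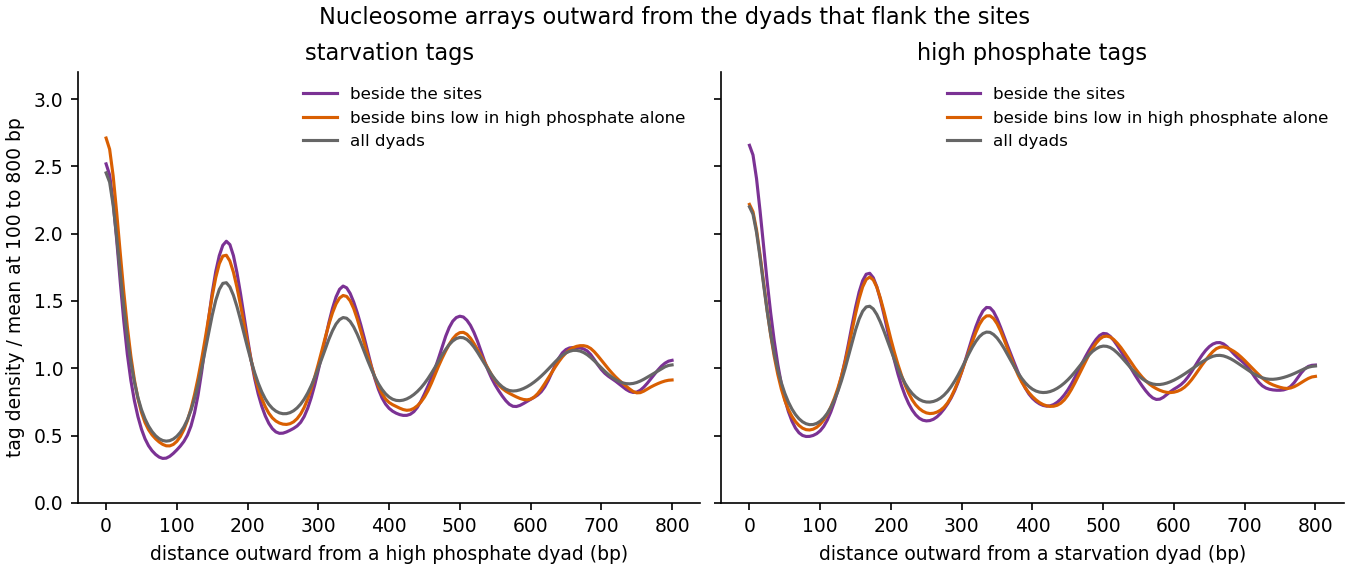
Tag density outward from a dyad, divided by the mean at 100 to 800 bp, for starvation tags on high phosphate dyads (left) and high phosphate tags on starvation dyads (right). Lines are dyads flanking the sites, dyads flanking bins low in high phosphate alone, and all dyads. Outward of the dyad itself, the nearest 3 peaks lie within 2 bp of each other in the 3 sets. At the first of these, the line of the sites is highest, at 1.94 in starvation (170 bp) and 1.71 in high phosphate (168 bp). At the dyad itself, at distance 0, the starvation line of bins low in high phosphate alone is higher than that of the sites, 2.71 against 2.52.

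The wider surroundings of the sites were covered nearly equally in both libraries. From 300 to 1500 bp on either side there were 101568 starvation tags and 258735 high phosphate tags. Scaled to nuclear tags, starvation over high phosphate gave a log2 ratio of 0.027 (95% exact conditional binomial interval 0.016 to 0.037), and its sign turned under 4 of 10 alternative settings, so no direction is given. It was −0.044 around the bins above the high phosphate threshold and 0.098 around the bins low in high phosphate alone.

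The sites were spread over all 16 chromosomes. Per 1000 bins with covered neighbours in high phosphate there were 15.9 sites (95% exact binomial interval 14.5 to 17.4). Chromosome 14 had the highest rate, 42 sites or 22.6 per 1000 (16.3 to 30.5), and chromosome 6 the lowest, 5 sites or 7.12 per 1000 (2.32 to 16.5). Chromosome 14 was the only 1 of 16 chromosomes whose interval did not include the rate of all chromosomes, and no correction was made for looking at 16 intervals. Chromosome 4, the longest, held most sites, 59, at 16.6 per 1000.

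**Figure D5:**
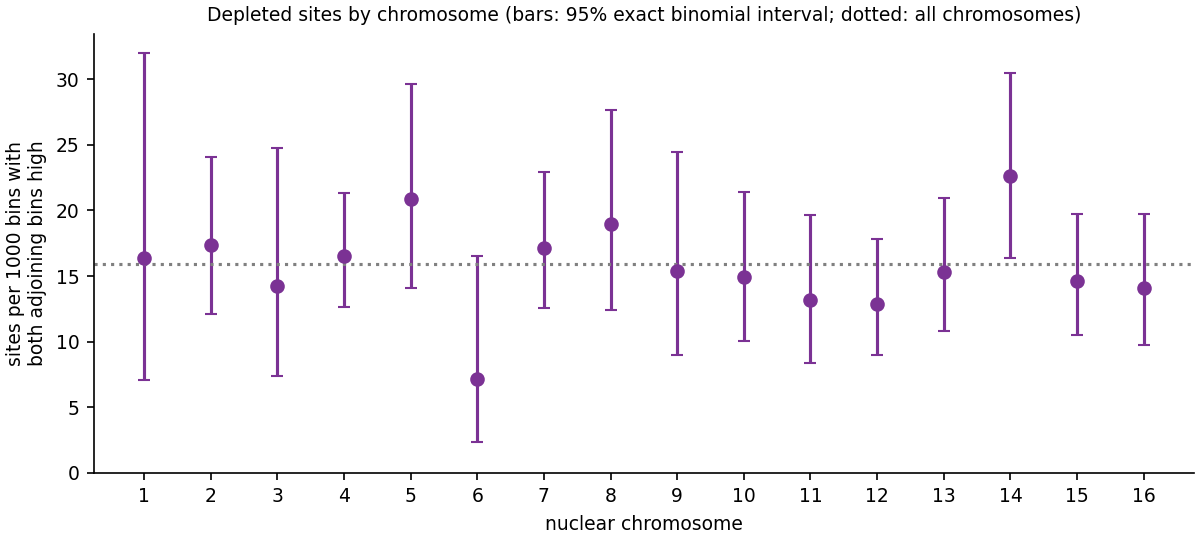
Depleted sites per 1000 bins with both adjoining bins at 0.8 or more in high phosphate, for the 16 nuclear chromosomes. Bars are 95% exact binomial intervals, which cover counting error only, and the dotted line is the rate of all chromosomes, 15.9. Chromosome 14 lies highest at 22.6 and chromosome 6 lowest at 7.12.

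Most sites had no other site within 1 kb. Sites were rare, at 0.794% of all bins, and the rule allows none in an adjoining bin, so wide distances follow in part from the choice. The median distance from a site to the nearest other site was 8200 bp, with quartiles of 3450 and 18550 bp. Another site lay within 1 kb at 36 sites (7.53%, 95% exact binomial interval 5.33% to 10.3%). The share for bins placed at random was not measured, so neither clustering nor isolation is read from this. The nearest lay 400 bp away at 11 of these 36 sites, 600 bp at 14, 800 bp at 7 and 1000 bp at 4. Sites 400 bp apart share the covered bin between them, so their flanks are not independent. The site on chromosome 4 from 1231401 and the site on chromosome 14 from 251001, both with low starvation flanks, were of this kind.

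The share of sites near chromosome ends was close to that of other bins. Within 20 kb of the outermost tagged position lay 17 sites (3.56%, 2.09% to 5.63%), beside 2.91% of all bins with covered neighbours. None of the 478 sites lay within 500 bp of a stretch of more than 400 bp without tags. The covered adjoining bins that the rule asks for leave little room for such a stretch there, and the share among other bins was not measured. Between 25 and 170 unmoved tags of both libraries together lay in each site or within 100 bp of it, with a median of 85, a number that the rule on the adjoining bins keeps from being low.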

How the data were processed

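Mononucleosomal DNA, 1 library for starvation and 1 for high phosphate, was sequenced on an Illumina Genome Analyzer, per the labels' protocols, and placed on the yeast genome build sacCer1. The aligner is not given in the sources used here. The deposited files list the chromosome, position and strand of each uniquely placed tag, with no level. Every position and strand occurs once (0 repeated), so repeat tags had been collapsed, which caps dense positions more in the deeper library. The sources do not say if the first base is 0 or 1, so coordinates are as in the files and may be off by 1. Bins started at position 1.

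Groups came from the sample titles. The members, lists and measures were chosen with earlier results of these data known. The sites named are the 10 lowest in high phosphate, the lowest of each chromosome, the 5 with the highest and the 5 with the lowest starvation flanks, and those beside each threshold. Dyad spacing and matching, the choice on 1 library alone, and the choice on odd or even positions were added after the data had been seen. Tag density was smoothed with a Gaussian SD of 20 bp for dyads (at least 120 bp apart) and 10 bp for edges and array peaks. Fragment length was the lag of 80 to 250 bp with most pairs of plus- and minus-strand tags. Python 3.11.15 with NumPy 2.4.6 and SciPy 1.17.1 was used, tested on simulated tags with planted gaps. The alternatives were other bin starts, tag shifts, depth, scaling and thresholds, a correction for filled positions, and leaving out sites near stretches without tags.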

Additional observations from a re-analysis of the deposited data

How the results depend on the processing

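No paired analysis was possible because there was a single library per condition, and leaving out replicates could not be tried either. Of 11 measures under 10 alternative settings, plus the count of sites on odd or even positions alone, 71 of 112 values stayed within 1.5 times the count of sites, within the counting interval of a share or ratio, or within the SD over chromosomes of a width or contrast. The other 41 follow by setting, with shares in percent. Leaving out sites near stretches without tags removed no site, so all 11 measures stayed under that setting by construction. Unmoved tags gave 212 sites, site shares of 6.71 (starvation) and 14.2 (high phosphate), both starvation flanks covered at 31.6, gap widths of 352 and 344 bp, a surroundings log2 ratio of −0.115, neighbours within 1 kb at 1.89 and no starvation tag at 9.43. Scaling to the mean bin gave 781 sites, site shares of 7.51 and 12.3, covered flanks at 31.1, a ratio of 0.0037 and no starvation tag at 3.71. A threshold of 0.5 in both libraries gave 985 sites, site shares of 8.52 and 12.7, a ratio of −0.0046, neighbours at 13.0 and no starvation tag at 3.15. A threshold of 0.3 in both gave 198 sites, site shares of 4.50 and 7.76, covered flanks at 66.7, a ratio of 0.124 and neighbours at 2.02. Covered flanks required in both libraries gave 271 sites, site shares of 4.27 and 10.9, covered flanks at 100 by construction, a ratio of 0.092 and neighbours at 1.48. Thinning high phosphate to the starvation total gave site shares of 5.57 and 11.25, covered flanks at 50.5 and a ratio of 0.0046. The correction for filled positions gave site shares of 4.665 and 10.9 and a ratio of −0.0075. Bins starting 100 bp later gave a ratio of −0.023. The cause of these moves was not tested beyond what each setting does by construction. The array contrast stayed above that of all dyads in all 10 settings, by 0.092 to 0.635 in starvation and 0.103 to 0.436 in high phosphate. It did so least with unmoved tags, and the setting that removed no site could not change it. Of 210 levels of the 35 named sites under 3 settings, 206 stayed within counting error. The other 4 were high phosphate levels that went to 0 on thinning. The 35 starvation levels could not change on thinning of high phosphate. Counting error is wide at so few tags, from 0.052 to 0.731 for 3 starvation tags. A level could therefore pass its threshold and still count as within error. On chromosome 15 from 526201 the high phosphate level went from 0.409 to 0.588 on thinning. On chromosome 5 from 436001 the starvation level went from 0.25 to 0.31 with the correction for filled positions.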
